A study of Mus musculus with 3 samples.

Results

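The genes described here are 10 genes of iron handling, measured in mouse spleen and liver: Hamp, Trf, Tfr2, Hfe, Hp, Hpx, Cp, Slc40a1, Hmox1 and Spic. They were chosen by name, as regulators and plasma carriers made by hepatocytes on the one hand and genes of iron recycling by macrophages on the other. All 10 were found, through 12 probes, among 20542 named genes and 39112 probes of an Agilent mouse array. Trf and Hmox1 had 2 probes each, and the other 8 genes had 1.

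The series includes a comparison of 3 kinds of tissue from female mice, each measured on 1 single-colour array. The SiO2 spleen is spleen treated with silica, and the SiO2-3TF-3C spleen is spleen that received silica together with a treatment the labels name 3TF-3C, without saying what the letters stand for. The design text names the second group hepatized spleens, and hepatized spleen is used for it here as a name only. Both kinds of spleen were taken on day 82. Normal liver served as the positive control, and no treatment is given for it. Silica is therefore shared by both spleen groups, and no untreated spleen is among these 3 samples. Neither strain nor age was given in the sources used here. Each spleen group is a pool of 5 cell or spleen samples according to the design text, which does not mention pooling of liver. With 1 array per group no test is possible, and no p-value or spread between animals can be given. Genes are described by a rule of size, 2-fold. The ± values are the technical error of a log2 difference from the scanner software and leave out all differences between animals or pools.

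Hepatocytes secrete hepcidin, the product of Hamp, a peptide hormone that binds the iron exporter ferroportin (Slc40a1) and has it degraded, so that less iron enters the plasma. Its transcription is driven by bone morphogenetic protein (BMP) and SMAD signalling, in which the co-receptor hemojuvelin (Hjv), the transferrin sensors Hfe and Tfr2 and the protease Tmprss6 take part, and by STAT3 downstream of interleukin 6. In the spleen, red pulp macrophages, whose development requires the transcription factor Spic, take up aged red cells, open the haem ring with haem oxygenase 1 (Hmox1) and export the iron through Slc40a1, after which transferrin (Trf) carries it in the plasma.

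The promoters of Hamp, Hamp2, Hpx and Cp, hepatocyte genes that differed between the spleens, are shown because elements of hepcidin and acute phase control can be looked for in them. RefSeq promoter sequence on the GRCm38.p6 assembly was given for 6 of the 10 genes (Hamp, Tfr2, Hpx, Cp, Hfe and Spic) and for Hamp2, the neighbouring paralogue of Hamp. The 250 bases before the transcription start are printed 5′ to 3′ on the strand of the gene, with motif matches in capitals. The windows are chr7:30944030-30944279 on the minus strand for Hamp, chr7:30924182-30924431 on the minus strand for Hamp2, chr7:105600117-105600366 on the minus strand for Hpx and chr3:19956999-19957248 on the plus strand for Cp.
Hamp: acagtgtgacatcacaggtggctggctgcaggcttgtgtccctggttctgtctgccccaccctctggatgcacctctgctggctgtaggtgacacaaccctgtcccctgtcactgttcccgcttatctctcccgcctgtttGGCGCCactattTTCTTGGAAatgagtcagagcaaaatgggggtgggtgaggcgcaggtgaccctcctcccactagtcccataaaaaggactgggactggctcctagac
Hamp2: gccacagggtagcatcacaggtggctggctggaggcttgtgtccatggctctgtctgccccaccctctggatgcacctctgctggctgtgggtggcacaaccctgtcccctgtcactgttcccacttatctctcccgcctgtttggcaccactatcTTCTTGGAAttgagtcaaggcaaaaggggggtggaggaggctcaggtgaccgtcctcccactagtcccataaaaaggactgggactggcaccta
Hpx: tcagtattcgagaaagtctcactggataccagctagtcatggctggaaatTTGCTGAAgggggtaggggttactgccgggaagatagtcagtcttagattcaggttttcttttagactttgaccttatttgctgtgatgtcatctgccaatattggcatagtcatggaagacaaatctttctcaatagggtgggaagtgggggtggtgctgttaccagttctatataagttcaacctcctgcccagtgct
Cp: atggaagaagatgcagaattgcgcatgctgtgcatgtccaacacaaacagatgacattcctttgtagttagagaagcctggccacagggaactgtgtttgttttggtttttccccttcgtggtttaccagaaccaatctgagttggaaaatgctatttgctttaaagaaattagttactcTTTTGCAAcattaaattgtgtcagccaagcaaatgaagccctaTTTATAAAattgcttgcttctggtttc
Searched on both strands were GGCGCC, the core of the BMP-responsive element, TTCNNNGAA, a STAT site, TTGCNNAA, a C/EBP site, and TATAAA, the TATA box. These letters are short: GGCGCC stood in 9.59% of the 32851 promoter windows in the table, TTCNNNGAA in 7.02%, TTGCNNAA in 9.56% and TATAAA in 12.4%. The Hamp window held GGCGCC with its first base 109 bases before the start, and TTCTTGGAA followed at 97, with 6 bases between them. The Hamp2 window held the same TTCTTGGAA at 94. In place of GGCGCC it read GGCACC, the substitution G4A, counted from the 5′ end of the 6-base motif in Hamp. Over 247 aligned bases the Hamp and Hamp2 windows were identical at 227 (91.9%). The Hpx window held a C/EBP match, TTGCTGAA, at 200. The Cp window shown held a C/EBP match on the minus strand, TTTTGCAA as printed, at 70, and TATA matches on both strands that overlap each other, with first bases at 27 and 25. None of these letters was found in the windows of Hfe, Spic and Tfr2 or in a second Cp window. The windows printed are thus those with a match, and Tfr2, which also differed between the spleens, is not among them. A match describes the sequence only, and binding was not measured here.

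Expression of these genes divided by role only in part, with the hepcidin regulator Hfe on the side of the macrophage genes. Of the 10 genes, 6 were higher by 2-fold or more in the hepatized spleen than in the SiO2 spleen, against 5.24% of all 17636 genes tested. None of the 10 (0) was lower by 2-fold or more, against 1.39% of all genes. The 6 were Hamp, Trf, Tfr2, Hp, Hpx and Cp, whose products are made chiefly by the liver. Hfe and the macrophage genes Slc40a1, Hmox1 and Spic stayed within 2-fold. The median log2 difference was 1.58 over the 10 genes and -0.15 over all genes tested. Because whole tissue was measured, fewer cells of a type and less RNA per cell cannot be told apart, here and below.

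**Figure D1:**
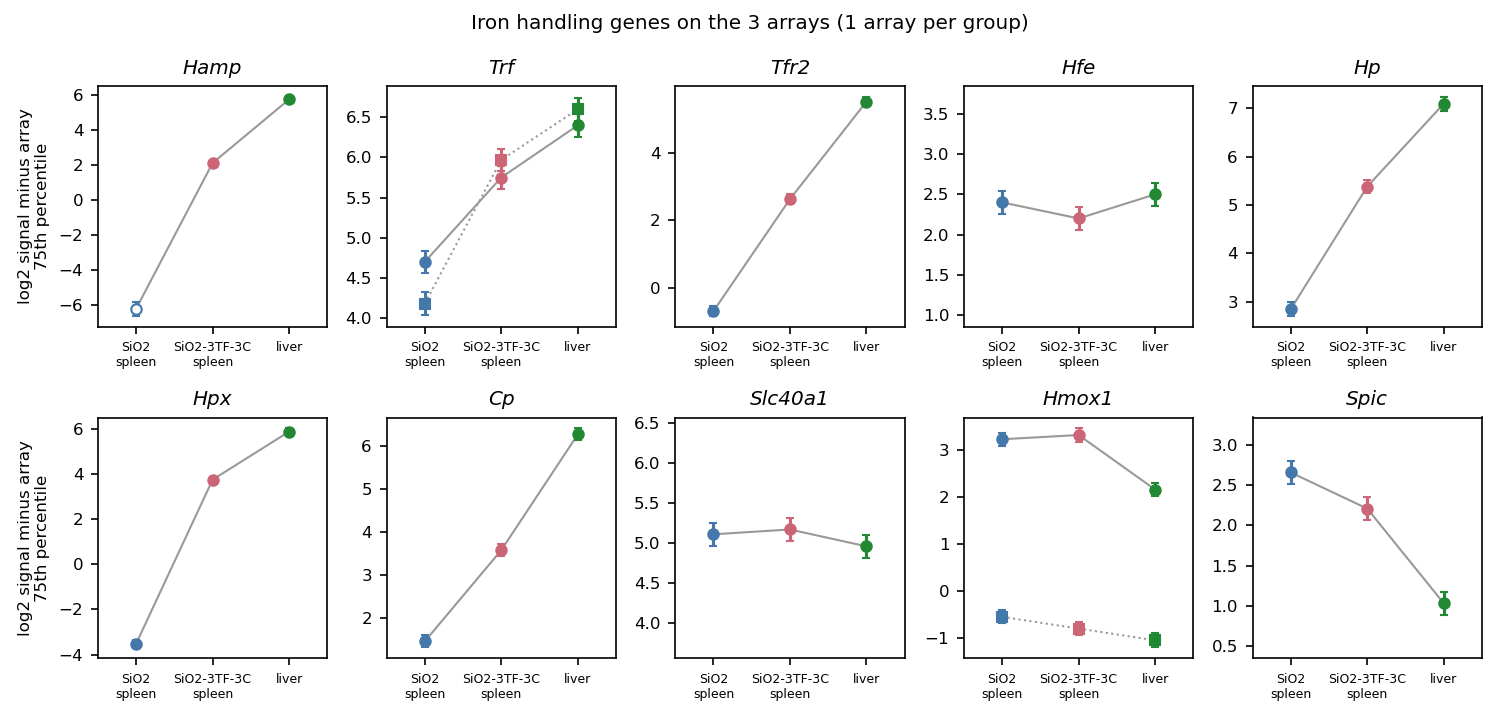
Scaled log2 signal of each of the 10 iron genes (log2 signal minus the 75th percentile of the array, vertical axis, with a range of its own in each panel) on the SiO2 spleen, SiO2-3TF-3C (hepatized) spleen and liver arrays, 1 array each. Bars are the technical error of the scanner software, the open circle marks a signal not well above background, and squares joined by dotted lines are the second probes of Trf and Hmox1. Hamp, Trf, Tfr2, Hp, Hpx and Cp climb from left to right, Hfe and Slc40a1 are nearly level, and Spic descends.

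Before these genes are taken in turn, the arrays were checked against their labels. Between 77.2% and 81.3% of spots were well above background on each array, and 0 were saturated. All 11 hepatocyte markers with a probe were at least 2-fold higher on the liver array than on the SiO2 spleen array, with a median log2 difference of 10.83. On the SiO2 spleen array 3 of them, Ttr, Apoa1 and Serpina3k, were not well above background. Their summed signal was 0.668 times the 75th percentile of the array in the SiO2 spleen, 230 in the hepatized spleen and 618 in liver. The liver array also carried signal for lymphocyte genes. All 9 B and T cell markers, Cd79a and Cd3e among them, were well above background on it, and their summed signal was 53.5 there, 43.2% of the 124 in the SiO2 spleen. It was 88.8 in the hepatized spleen. The part of these cell types in the differences below was not tested. The RNA protocol in the labels is one for blood, with lysis of red and white cells and removal of globin messages, and its use on solid tissue is not described.

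Hamp, the gene of hepcidin, was the member with the widest range. Its signal, as a multiple of the 75th percentile of the array, was 0.0135 in the SiO2 spleen, which was not well above background, 4.32 in the hepatized spleen and 53.5 in liver. The 3 samples were thus far apart, and hepcidin message was not detectable above background in the SiO2 spleen. With the dim side set to the lowest signal well above background on its array, Hamp was at least 285-fold higher in the hepatized spleen and at least 3523-fold higher in liver. The bound depends on how background is treated: the log2 difference was 8.15 in the hepatized spleen, and 5.27 after normexp correction with an offset of 50. For liver the same values were 11.78 and 8.74. Between the hepatized spleen and liver, where both were measured, Hamp was 12.4-fold lower in the former (log2 difference -3.63 ± 0.20).

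Hamp2 followed the same order. Its signal was 0.0781 in the SiO2 spleen, 1.39 in the hepatized spleen and 13.0 in liver, and all 3 were above background. It was 17.8-fold higher in the hepatized spleen than in the SiO2 spleen (log2 difference 4.15 ± 0.21) and 167-fold higher in liver (7.38 ± 0.21). The Hamp and Hamp2 messages are close copies, and signal of the one on the probe of the other was not tested.

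Tfr2, transferrin receptor 2, a hepatocyte sensor of iron-loaded transferrin that erythroid precursors also make, gave a signal of 0.617 in the SiO2 spleen, 6.16 in the hepatized spleen and 45.5 in liver. It was 9.98-fold higher in the hepatized spleen than in the SiO2 spleen (log2 difference 3.32 ± 0.20). The liver stood 73.7-fold above the SiO2 spleen (6.20 ± 0.20). Of 12 erythroid markers, 10 were at least 2-fold higher in the hepatized spleen than in the SiO2 spleen, against 5.24% of all genes. Their summed signals were 23.7 in the SiO2 spleen, 56.7 in the hepatized spleen and 10.7 in liver. In liver 0 of the 12 were at least 2-fold higher than in the SiO2 spleen, against 15.4% of all genes. There 7 were at least 2-fold lower, against 17.0%, and Rhag and Erfe were not well above background. The part of erythroid cells in the Tfr2 signal was not tested.

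Hfe, the MHC class I-like protein that works with Tfr2 in hepcidin control, did not share that order. Its signal was 5.26 in the SiO2 spleen, 4.60 in the hepatized spleen and 5.65 in liver. The log2 difference of the hepatized spleen from the SiO2 spleen was -0.19 ± 0.20, and that of liver was 0.10 ± 0.20, whose sign turned under 3 of 9 alternatives (lowest -0.03). Hfe in the SiO2 spleen thus lay within the technical error of both other samples.

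The list of hepcidin control had 24 genes tested, Hamp, Tfr2 and Hfe included. Of these, 8 had at least a 2-fold higher value in the hepatized spleen than in the SiO2 spleen, against 5.24% of all genes, and 0 a lower one, against 1.39%. The median log2 difference of the 24 was 0.04. Besides Hamp, Hamp2 and Tfr2, the 8 were Tmprss6, Hjv, Fgl1, Erfe and Smad9 (Smad9 was named after its values were seen). Tmprss6, the hepatocyte protease that restrains hepcidin, had a signal of 0.0203 in the SiO2 spleen, 1.56 in the hepatized spleen and 19.8 in liver, with log2 differences from the SiO2 spleen of 6.26 ± 0.34 and 9.93 ± 0.34. Hjv was not well above background in SiO2 spleen and was at least 2.95-fold higher in the hepatized spleen and at least 33.6-fold higher in liver. Fgl1, a hepatocyte protein reported to restrain BMP signalling, differed by 6.94 ± 0.22 and 9.84 ± 0.22.

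Bmp2 and Bmp6, ligands of the BMP pathway, and its targets Smad7 and Id1 lay within 2-fold between the spleens. Hamp, which the pathway also drives, and Smad9 were beyond 2-fold, as given above. Bmp2, an endothelial ligand that induces hepcidin, had a signal of 0.324, 0.189 and 0.368 in the SiO2 spleen, the hepatized spleen and liver, and a log2 difference of -0.78 ± 0.21 between the spleens. Bmp6, the ligand that responds to iron load, was well above background in all 3 samples, with differences of 0.11 ± 0.21 and 0.15 ± 0.22. Smad7, a target and inhibitor of the pathway, differed by -0.74 ± 0.20 in the hepatized spleen and by -0.35 ± 0.20 in liver. Id1, a further target, gave 6.78 in the SiO2 spleen and 6.76 in the hepatized spleen, and its liver spot was marked as an outlier by the scanner software and left out.

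**Figure D2:**
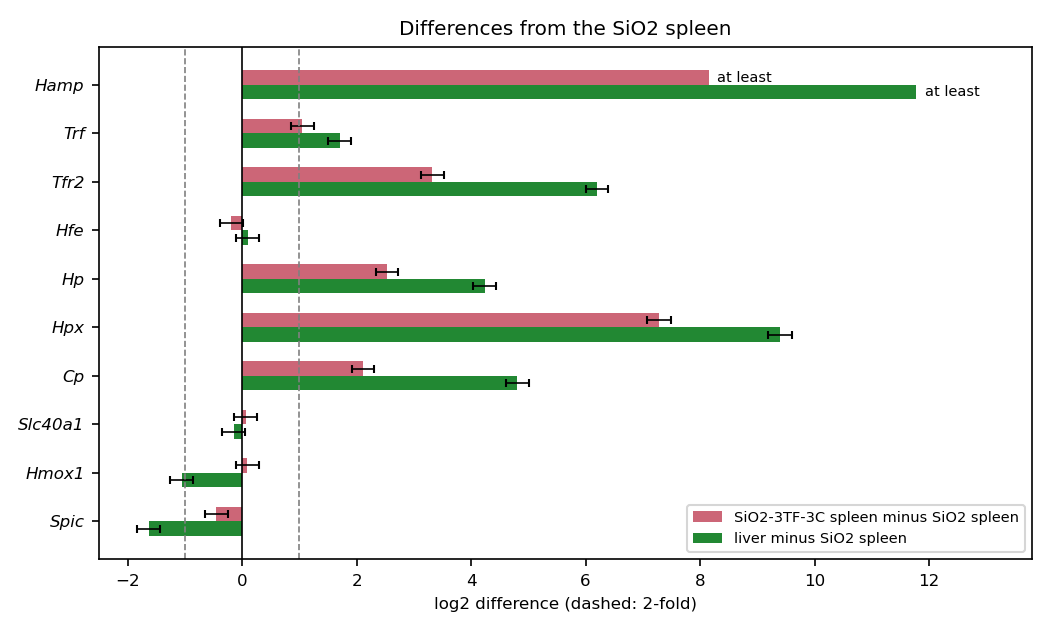
Log2 differences of the 10 iron genes from the SiO2 spleen (horizontal axis) for the SiO2-3TF-3C (hepatized) spleen (red) and liver (green), with dashed lines at 2-fold. Bars start at 0, whiskers are the technical error of the scanner software, and the Hamp bars are lower bounds. Both comparisons share the SiO2 spleen array, and Hamp, Trf, Tfr2, Hp, Hpx and Cp lie beyond 2-fold in both.

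The plasma carriers Hpx, Hp, Cp and Trf were all at least 2-fold higher in the hepatized spleen than in the SiO2 spleen, and higher still in liver. Hpx, hemopexin, which binds free haem in plasma and delivers it to the liver, had a signal of 0.0871 in the SiO2 spleen, 13.5 in the hepatized spleen and 58.7 in liver. It was 155-fold higher in the hepatized spleen (log2 difference 7.28 ± 0.21), and 6.12 on the log2 scale after normexp correction. In liver it was 674-fold higher than in the SiO2 spleen (9.40 ± 0.21, and 8.14 after normexp). Of the members measured on both spleen arrays, Hpx differed most.

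Hp, haptoglobin, which binds free haemoglobin, had a signal of 7.22 in the SiO2 spleen, 41.6 in the hepatized spleen and 137 in liver. The hepatized spleen was 5.77-fold higher than the SiO2 spleen (log2 difference 2.53 ± 0.20) and liver 18.9-fold higher (4.24 ± 0.20). Unlike Hamp, Hp was thus well above background in the SiO2 spleen. Hp is also an acute phase gene. In the hepatized spleen 13 of 16 acute phase genes were at least 2-fold higher than in the SiO2 spleen, against 5.24% of all genes. The median log2 difference of the 16 was 3.98. In liver 13 of the 16 were at least 2-fold higher, against 15.4% of all genes. The summed signal of the 16 was 10.7 in the SiO2 spleen, 83.7 in the hepatized spleen and 335 in liver. Crp and Fgg were not well above background in SiO2 spleen. The list also holds the cytokine genes Il6 and Il1b (named after their values were seen). They differed by -0.28 ± 0.26 and -0.91 ± 0.20 between the spleens. An acute phase response was not tested.

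Cp, ceruloplasmin, the copper ferroxidase that oxidises iron for loading onto transferrin, had a signal of 2.76 in the SiO2 spleen, 11.9 in the hepatized spleen and 77.2 in liver. The log2 difference from the SiO2 spleen was 2.11 ± 0.20 in the hepatized spleen, 4.32-fold, and 4.81 ± 0.20 in liver, 28.0-fold. The 3 samples were again in the order SiO2 spleen, hepatized spleen, liver.

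Trf, transferrin, had the smallest difference of the 6 genes. Its brighter probe gave 26.0 in the SiO2 spleen, 53.7 in the hepatized spleen and 84.2 in liver, so the SiO2 spleen already carried 30.8% of the liver signal. The hepatized spleen was 2.07-fold higher than the SiO2 spleen (log2 difference 1.05 ± 0.20), which is within the technical error of the 2-fold line. The second probe, with 18.1, 62.6 and 97.1 in the same order, gave 3.46-fold. Liver was 3.24-fold above the SiO2 spleen with the first probe and 5.37-fold with the second.

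Beyond these 4, 3 more carriers and scavengers were at least 2-fold higher in the hepatized spleen. In all 7 of 10 tested were, against 5.24% of all genes, with a median log2 difference of 1.37. Ambp, the precursor of the haem-binding protein alpha-1-microglobulin, differed by 9.53 ± 0.24 in the hepatized spleen and by 11.43 ± 0.24 in liver. Ltf and Lcn2, lactoferrin and lipocalin 2, which neutrophils carry in their granules, were named after their values were seen. Ltf had a signal of 5.59 in the SiO2 spleen, 15.5 in the hepatized spleen and 2.18 in liver, and Lcn2 had 1.64, 3.96 and 3.11. Both were thus highest in the hepatized spleen, and Ltf was 2.56-fold lower in liver than in SiO2 spleen. The receptors that clear haptoglobin and hemopexin complexes, Cd163 and Lrp1, differed between the spleens by 0.11 ± 0.25 and 0.07 ± 0.20. The Cd163 signal was dim, at 0.0452 in the SiO2 spleen and 0.0486 in the hepatized spleen.

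The genes of macrophage iron recycling took another course. Slc40a1, ferroportin, the only known iron exporter of mammalian cells, had a signal of 34.5 in the SiO2 spleen, 36.0 in the hepatized spleen and 31.2 in liver. The log2 difference of the hepatized spleen from the SiO2 spleen was 0.06 ± 0.20, from -0.03 to 0.31 over the alternatives, and that of liver was -0.15 ± 0.20. All 3 samples were close together, and the hepatized spleen and liver, the pair farthest apart, differed by 0.21 ± 0.20. Hamp message thus differed widely between spleens in which Slc40a1 message was nearly level. Hepcidin acts on the ferroportin protein, which the arrays do not measure.

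Hmox1, which opens the haem ring and frees its iron, was nearly level between the spleens and lower in liver. Its brighter probe gave 9.35 in the SiO2 spleen, 9.98 in the hepatized spleen and 4.48 in liver. The log2 difference between the spleens was 0.09 ± 0.20 and turned sign under 2 of 9 alternatives (lowest -0.29). Liver was 2.09-fold lower than the SiO2 spleen (-1.06 ± 0.20). That 2-fold call rested on the brighter probe, since the second, dimmer probe gave 0.683, 0.573 and 0.483, a log2 difference of -0.50 in liver. The mean over both probes was -0.78, and the authors' deposited values, which hold only the dimmer probe, gave -0.53.

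Spic, the transcription factor of red pulp macrophages, was highest in the SiO2 spleen, at 6.31, with 4.61 in the hepatized spleen and 2.05 in liver. The hepatized spleen was 1.37-fold lower than the SiO2 spleen (log2 difference -0.45 ± 0.20), within 2-fold but beyond the technical error. Liver was 3.09-fold lower (-1.63 ± 0.20). Spic was the lowest of 12 red pulp macrophage markers between the spleens. Of the 12, 0 were beyond 2-fold there, where 5.24% of all genes were higher and 1.39% lower. Their median log2 difference was -0.07, from -0.45 to 0.21. Among them were Vcam1, which holds macrophages in the red pulp (-0.12 ± 0.20), and Adgre1, the surface protein F4/80 (-0.02 ± 0.20). In the same comparison all 9 B and T cell markers were lower, from -0.65 to -0.36, with a median of -0.50. The median over all genes there was -0.15. Whether the Spic difference is particular to macrophages was not tested.

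On the liver array 4 of the 12 red pulp markers were at least 2-fold lower than in the SiO2 spleen, against 17.0% of all genes. They were Spic, Vcam1, Itgad and Itgam (Itgam was named after its values were seen), at log2 differences of -1.63, -1.26, -1.66 and -1.78. All 12 were well above background in liver, where their summed signal was 61.1, against 98.7 in the SiO2 spleen and 89.5 in the hepatized spleen. Beside these, the 9 B and T cell markers had a median log2 difference of -1.26 in liver. Of the 9, 6 were at least 2-fold lower, against 17.0% of all genes, so Spic and lymphocyte genes were lower together on that array.

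Markers of Kupffer cells, the resident macrophages of the liver, were split in the hepatized spleen. Clec4f, a lectin particular to Kupffer cells, had a signal of 0.0168 in the SiO2 spleen, 1.42 in the hepatized spleen and 10.3 in liver (log2 differences 6.41 ± 0.34 and 9.26 ± 0.34). Vsig4, a complement receptor, had 0.0422, 0.730 and 5.44 (4.11 ± 0.23 and 7.01 ± 0.23). The other 6 of the 8 markers were within 2-fold between the spleens. Thus 2 of 8 were at least 2-fold higher, against 5.24% of all genes, and 0 lower, against 1.39%. The summed signal of all 8 was 49.4 in the SiO2 spleen, 47.7 in the hepatized spleen and 73.1 in liver. Kupffer cells also express Slc40a1 and Hmox1, and their part in the levels of these genes was not tested.

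**Figure D3:**
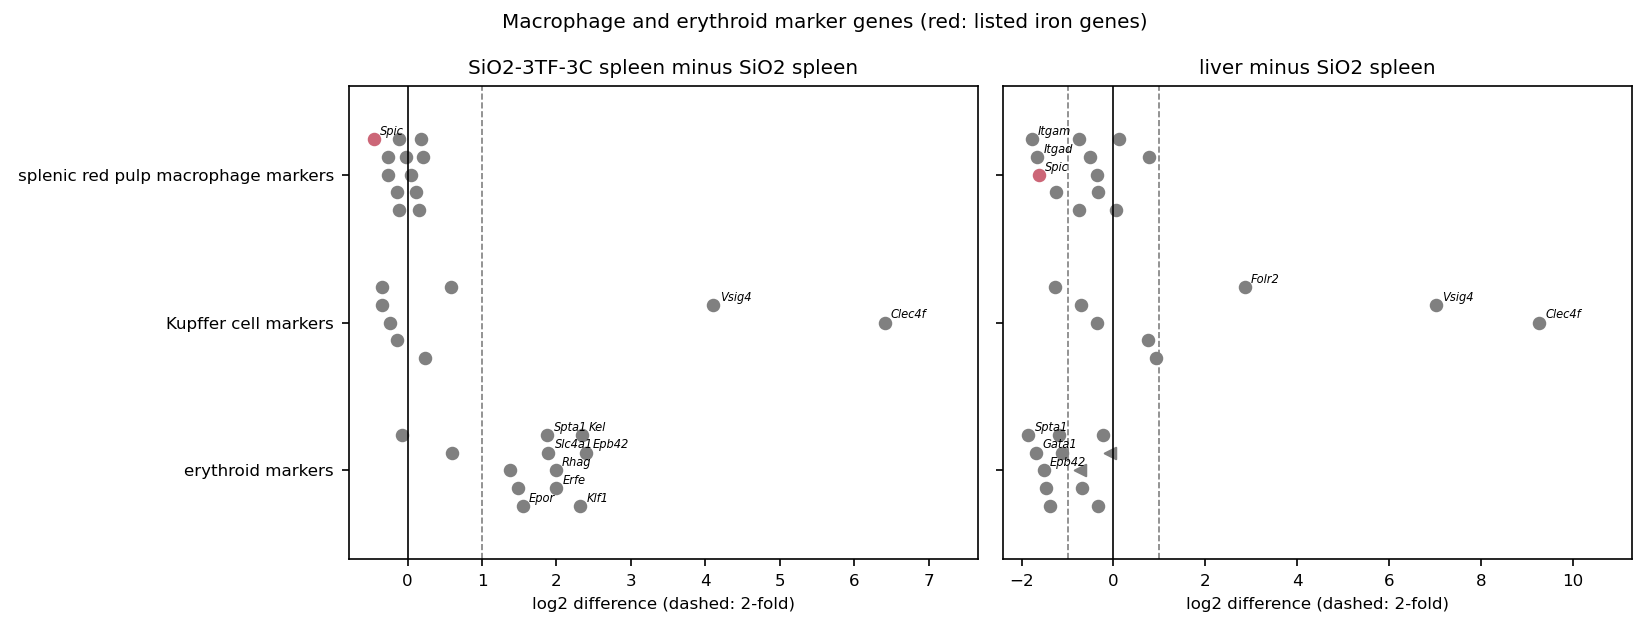
Log2 differences from the SiO2 spleen (horizontal axes) of red pulp macrophage, Kupffer cell and erythroid marker genes in the hepatized spleen (left) and in liver (right), 1 dot per gene, with triangles for bounds, dashed lines at 2-fold and Spic in red. Clec4f and Vsig4 stand far to the right in both panels, and most erythroid markers lie to the right of the 2-fold line in the left panel and below 0 in the right one.

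Liver differed from the SiO2 spleen in the same 6 genes, Hamp, Trf, Tfr2, Hp, Hpx and Cp, all at least 2-fold higher (15.4% of 17355 genes tested were), and in Hmox1 and Spic, which were at least 2-fold lower (17.0% of genes were). The median log2 difference was 2.97 over the 10 genes and -0.14 over all genes. This comparison and the first share the SiO2 spleen array, so that an error in that array enters both.

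Set against liver directly, the hepatized spleen was at least 2-fold lower in 5 of the 10 genes, Hamp, Tfr2, Hp, Hpx and Cp (15.9% of 17209 genes tested were), and at least 2-fold higher in Hmox1 and Spic (10.7% of genes were). Hmox1 was 2.23-fold higher with its brighter probe (log2 difference 1.16 ± 0.20), and its second probe gave 0.25. Spic was 2.25-fold higher (1.17 ± 0.20). The median over all genes in this comparison was -0.03, and it moved to 0.09 with quantile normalization, so differences near 0 depend on the scaling.

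As a share of the liver signal, the 6 hepatocyte genes reached unequal levels in the hepatized spleen. Hamp reached 8.08%, Tfr2 13.5%, Cp 15.4%, Hpx 23.0%, Hp 30.5% and Trf 63.8%. The technical error of the Hamp share spans 7.01% to 9.31%, which lies apart from that of the Trf share, 55.4% to 73.5%. The hepcidin regulators Tmprss6 and Hjv were at 7.87% and 8.77% and Hamp2 at 10.7%, below the plasma carriers. For comparison, 1321 genes exceeded SiO2 spleen by 4-fold or more in liver and were well above background in both liver and the hepatized spleen. Their middle 50% lay between 10.9% and 23.0%, with a median of 15.8%. Liver genes too dim to measure in the hepatized spleen are outside this band. Hamp was under that band, Tfr2 and Cp within it, Hpx at its upper edge and Hp above it. The 11 hepatocyte markers ran from 8.99% for Apoa1 to 87.9% for Alb, and Hnf4a, a transcription factor that controls many hepatocyte genes, was 9.13-fold lower in the hepatized spleen than in liver.

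**Figure D4:**
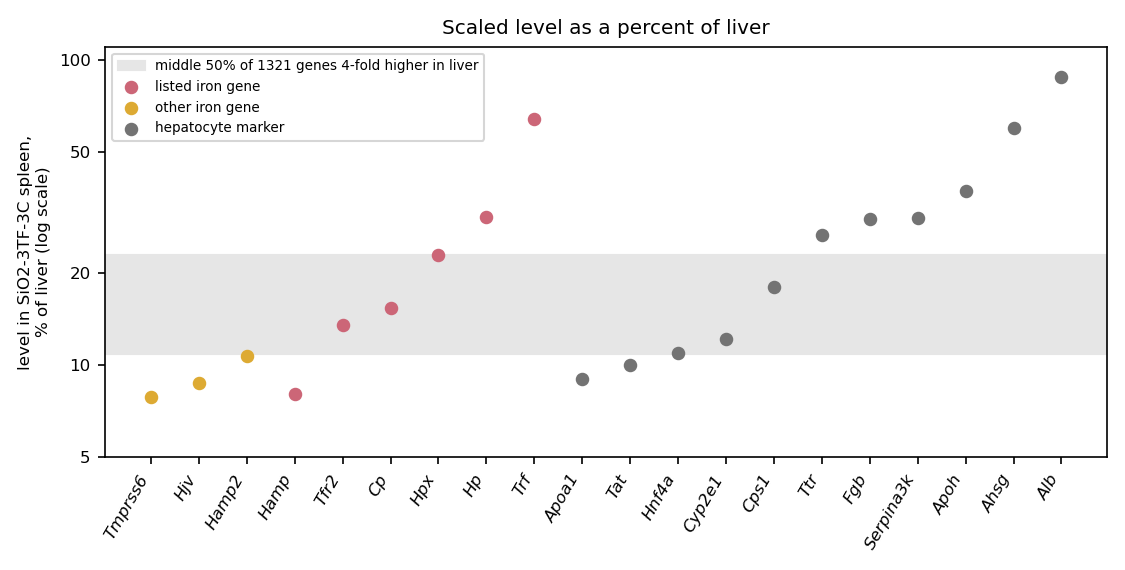
Signal in the hepatized spleen as a percent of that in liver (vertical axis, log scale) for the listed iron genes that were higher in liver (red), other hepcidin genes (yellow) and hepatocyte markers (grey), 1 array per group. The grey band, 10.9% to 23.0%, is the middle 50% of 1321 genes. These exceeded SiO2 spleen by 4-fold or more in liver and were well above background in the hepatized spleen. Hamp, Hjv and Tmprss6 lie under the band, Hamp2 just under its lower edge, and Hp above it. Trf also lies above it, but is outside the 4-fold set. With the probe used it was 3.24-fold higher in liver than in SiO2 spleen.

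Among 72 iron genes tested outside the 10, 14 (19.4%) were at least 2-fold higher in the hepatized spleen, against 5.24% of all genes. In the other direction 1 (1.39%) was lower, against 1.39% of all genes, and 57 lay within 2-fold. Their median log2 difference was 0.03. In liver 22 of 73 (30.1%) were at least 2-fold higher than in the SiO2 spleen, against 15.4% of all genes, and 6 (8.22%) were lower, against 17.0%. Their median there was 0.29.

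Iron uptake accounted for 14 genes, of which 5 were higher in the hepatized spleen by 2-fold or more and 0 lower. The shares of all genes were 5.24% and 1.39%. Tfrc, transferrin receptor 1, through which erythroid cells take up iron, had a signal of 1.58 in the SiO2 spleen, 4.41 in the hepatized spleen and 0.698 in liver. It was 2.79-fold higher in the hepatized spleen (log2 difference 1.48 ± 0.20), and its other 2 probes gave 3.50-fold and 1.92-fold. In liver, where Tfr2 was high, Tfrc was 2.27-fold lower than in the SiO2 spleen. Tfrc is among the 12 erythroid markers described above, as is Erfe, the erythroblast hormone that lowers hepcidin. The brighter Erfe probe was 4.01-fold higher in the hepatized spleen and the second 1.09-fold, so its probes disagreed. Klf1, an erythroid transcription factor, differed by 2.32 ± 0.20.

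The other 3 uptake genes beyond 2-fold, besides Tfr2, were Steap4 and Steap1, metalloreductases, at least 5.25-fold and at least 2.77-fold higher, and Slc39a8, a zinc and iron importer, at 1.47 ± 0.20. Slc39a14, which takes iron not bound to transferrin into hepatocytes, differed by 0.87 ± 0.20 between the spleens and by 3.75 ± 0.20 in liver. Slc11a2, the iron transporter DMT1, differed by -0.09 ± 0.20 between the spleens. Steap3, the reductase of the transferrin cycle, gave 0.33 ± 0.21 and, with its second probe, 1.15 ± 0.21.

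The 8 storage genes were within 2-fold between the spleens, as were most of all genes (5.24% were higher and 1.39% lower). By the probe taken for each gene, all 8 lay between -0.48 and -0.05 on the log2 scale in the hepatized spleen. Their median was -0.18, close to the -0.15 of all genes. Fth1, the ferritin heavy chain, differed by -0.20 ± 0.20 and Ftl1, the light chain, by -0.15 ± 0.20. The second Ftl1 probe gave 0.22 ± 0.20, outside that range. Besides Cp and Slc40a1, the export gene measured was Heph, the ferroxidase hephaestin, at -0.02 ± 0.21.

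Genes of haem breakdown and transport, Hmox1 and Spic included, were mostly within 2-fold as well, with a median of 0.12. Of the 12, 1 was at least 2-fold higher, against 5.24% of all genes, and 0 lower, against 1.39%. It was Pgrmc1, a haem-binding membrane protein (1.43 ± 0.20). Blvra and Blvrb, the biliverdin reductases that act after Hmox1, differed by -0.02 ± 0.20 and 0.17 ± 0.20. Bach1, the haem-sensitive repressor of Hmox1 and Spic, differed by -0.15 ± 0.20, and Nfe2l2, which activates Hmox1, by 0.15 ± 0.20. Slc48a1, which moves haem out of the phagolysosome of macrophages, stood apart from this group. Its signal was 25.4 in the SiO2 spleen and 12.1 in the hepatized spleen, 2.10-fold lower (-1.07 ± 0.20). Its liver spot was marked as an outlier, so it is outside the counts given here. Among 13 genes of iron sensing and mitochondrial iron, 1 was at least 2-fold lower, against 1.39% of all genes, and 0 higher, against 5.24%. That gene was Aco1, the iron regulatory protein 1, at -1.05 ± 0.28 with a dim signal of 0.0508 and 0.0246 in the spleens.

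**Figure D5:**
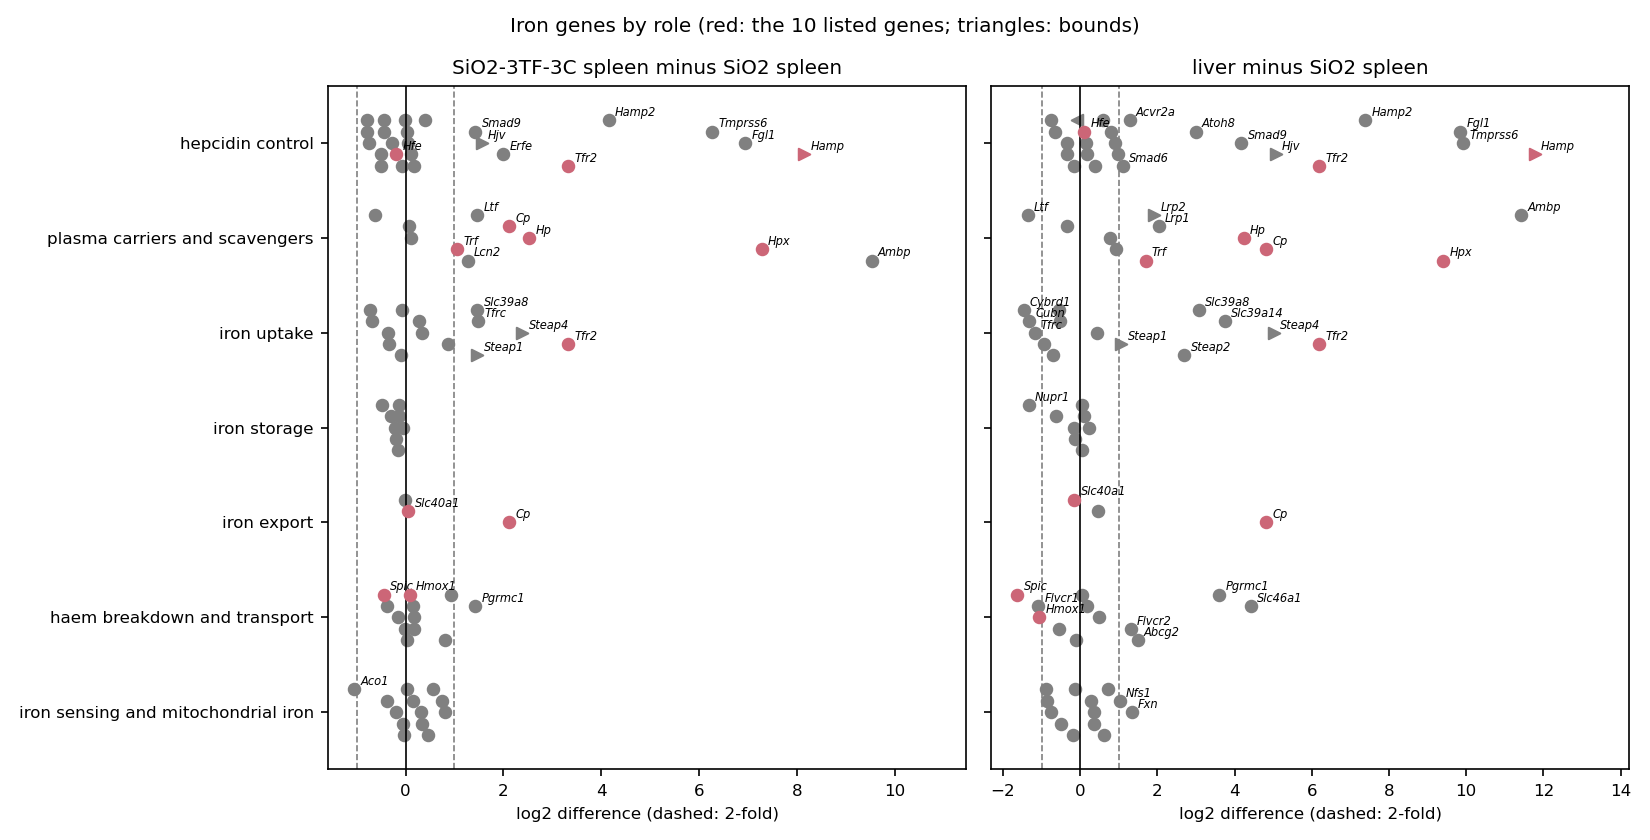
Log2 differences from the SiO2 spleen (horizontal axes) of iron genes grouped by role in the hepatized spleen (left) and in liver (right), 1 symbol per gene, with the 10 listed genes in red, bounds as triangles and dashed lines at 2-fold. Genes of hepcidin control and plasma carriers reach far to the right in both panels, while the 8 storage genes lie between -0.48 and -0.05 in the left panel.

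The genes whose pair of differences (hepatized spleen and liver, each minus SiO2 spleen) lay nearest to that of a member were sought among the 16083 genes that were well above background in every sample. For Slc40a1 they were Adora2b, Gipc1 and Fam3b, at distances of 0.003 to 0.006 on the log2 scale. For Hmox1 they were Psip1, Dck and Slc39a10, at 0.017 to 0.029, and for Spic they were Clic5, Ubash3b and Il21r, at 0.008 to 0.015. The measure rests on 3 samples. All these distances are below the technical error, so many genes are as near. Hamp has no such list, since it was not measured in the SiO2 spleen.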

How the data were processed

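The deposited scanner files, 1 per Cy3 array, give spot intensity on a linear scale, background-subtracted and detrended by the authors' scanner software (Feature Extraction 11.0.1.1, array design 026655 and build mm9 per the file headers; the submitters' processing notes name version 9.1). The authors' deposited series table holds log2 values of 26049 probes (r with the own array from 0.993 to 0.996, median 5.91 and maximum 16.58 in all 3 columns); its normalization was not given in the sources used here, and it holds 6 of the 10 genes.

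Spots flagged as outliers (182, 283 and 469 of 43020 on the SiO2 spleen, hepatized spleen and liver arrays) and control spots were left out, and spots of a probe were averaged. Log2 processed signals were scaled by subtracting the 75th percentile of each array (an intensity of 569, 515 and 390). Probes were named by unversioned RefSeq accession against the GRCm38.p6 gene table (27032 of 39112, 69.1%). A gene takes its probe with the highest mean over the arrays. A gene not well above background on 1 side of a comparison has a bound, for which the dim side was raised, where lower, to the faintest signal of that array that was still well above background (scaled log2 values of -6.04, -6.20 and -5.57). Levels of a gene were compared between arrays within a probe. Summed signals of the marker lists add the chosen probes of their genes, so bright probes weigh most in them. No test between groups was run, since each group has 1 array, which limits precision. The code of the 2-fold rule was checked on simulated 4-fold changes, with scanner error as the only noise. That check does not cover bounds or differences between animals or pools.

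Members, gene lists and tests were chosen with earlier results of these data known. Genes named are the 10 members, up to 4 per list with the largest difference between the spleens that were measured on both arrays, every bound of at least 2-fold, and fixed anchors such as Hamp2, Slc48a1 and Cd79a; likeness took the 3 nearest genes. One erythroid marker of the planned list is not reported here. Alternatives were normexp correction (offset 50, on spot medians in place of the planned spot means), quantile, median and housekeeping scaling, the deposited values, the mean over probes, 2 filters on dim probes, flagged spots kept, and 4-fold in place of 2-fold. Python 3.11.15 with numpy 2.4.6, pandas 2.3.3 and matplotlib 3.10.9, and limma 3.58.1 in R 4.3.3, were used.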

Additional observations from a re-analysis of the deposited data

How the results depend on the processing

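Of the 30 differences of the 10 genes in the 3 comparisons, 28 stayed on their side of the 2-fold line under every alternative run, and 0 of the differences beyond 2-fold changed sign. The exceptions were Hmox1 in liver against the SiO2 spleen and in the hepatized spleen against liver, which fell inside 2-fold with the deposited values (-0.53 and 0.25) and with the mean over all probes (-0.78 and 0.70). Trf between the spleens stayed beyond 2-fold but close to it, from 1.03 to 1.42. The counts moved as follows. With the deposited values, which hold 6 of the 10 genes, 3 were beyond 2-fold upward in the hepatized spleen against the SiO2 spleen, 3 were higher and 1 lower in liver than in SiO2 spleen, and 1 was higher and 3 lower in the hepatized spleen than in liver. With the mean over all probes, 1 gene was lower in liver than in SiO2 spleen and 1 higher in the hepatized spleen than in liver. At 4-fold, 0 were lower in liver than in SiO2 spleen and 0 higher in the hepatized spleen than in liver. Of the genes counted in the main run, the deposited values lack Trf, Hpx and Cp. They hold Hmox1 only by its dimmer probe, which was within 2-fold. With the mean over all probes Hmox1 was again within 2-fold, and at 4-fold both Hmox1 and Spic were inside the line. The remaining 51 of 60 counts moved by less than 1.5 times. No paired analysis was possible because each group has 1 array. Signal over background limits Hamp and Hjv in the SiO2 spleen to bounds, and a single array per group leaves the spread between animals unknown.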
